A study of Caenorhabditis elegans with 2 samples.

Results

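The members described here are the broad peaks of an ATFS-1 chromatin immunoprecipitation sequencing (ChIP-seq) experiment in Caenorhabditis elegans, the 320 of 1005 listed peaks (31.8%) that span 2 kb or more. They were chosen on one column of the list, the peak length, and the other 685 peaks are shorter. The experiment used wild-type worms raised from bleached eggs on spg-7(RNAi) food and collected as L4 larvae after about 48 h. Whole-worm lysate was cross-linked with 11% formaldehyde and sheared to fragments of 500 to 1000 bp, then taken through either with an ATFS-1 antibody or with no antibody. Both groups share the wild-type genotype and the spg-7 knockdown, and each is 1 library, so no value below has a replicate check.

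ATFS-1 is a bZIP transcription factor that carries both a mitochondrial targeting sequence and a nuclear localization signal. In healthy worms it is imported into mitochondria and degraded there; when import falters it accumulates in the nucleus and turns on the mitochondrial unfolded protein response, a program of chaperones, proteases and metabolic genes. SPG-7 is a protease of the mitochondrial inner membrane, and its knockdown is a standard way to switch the response on. A peak is a stretch of genome where sequenced tags of the antibody library pile up over the control, and its length depends on how far along the chromosome that pile-up stays above the caller's cutoff. The worm genome is compact, so a region of several kb can reach more than 1 gene.

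The antibody library held 10992796 tags after removal of duplicates and the no-antibody library 10583049, and the caller had removed 40% and 20.3% of their tags. The control carried no antibody, so tags drawn in by the antibody at sites of other proteins are not measured by it. The libraries came from different sequencing project folders per the file header, so project and antibody cannot be told apart. Tag counts, fold enrichments, scores and false discovery rates are the values of the authors' peak caller. Length comes from the same antibody-over-control contrast as all of them, so the broad peaks are described beside the shorter ones and nothing is tested. Because the lysate is of whole worms, a peak cannot be placed in a tissue. Few tissue markers were named at all. Of 12 intestinal marker genes 2 were at any peak, fat-6 and asp-1, both broad (3.78-fold and 3.20-fold). Muscle (13 markers), germline (12), neurons (13) and hypodermis (12) each had 1 marker at a peak, a shorter one in each case, where 33.7% of all names stood at broad peaks. These counts are too small to set one tissue apart.

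Broad peaks ranged from 2012 to 11562 bp with a median of 2806 bp, and the shorter peaks from 984 to 1994 bp with a median of 1324 bp. At least 3 kb was covered by 141 of them, at least 4 kb by 61 and at least 5 kb by 26. Their summed length, 1028342 bp, was 52.2% of all sequence under peaks. They held 262240 tags, 57.2% of the tags under peaks and 2.39% of the filtered antibody library. Lengths ran on without a gap across the 2 kb line. The 3 shortest members were a peak with no gene name on chromosome V (2012 bp, 3.15-fold), zk632.9 (2013 bp, 2.70-fold) and F58B4.5 (2015 bp, 2.76-fold). The 3 longest peaks left out were gsp-2 (1994 bp, 2.62-fold), osm-11 (1989 bp, 3.42-fold) and rps-12 (1988 bp, 2.73-fold).

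**Figure D1:**
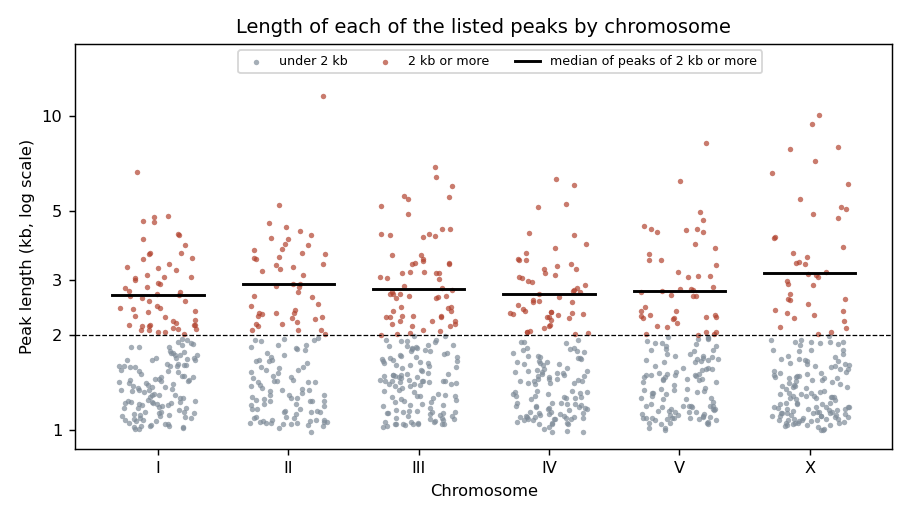
Length in kb (log scale) of each of the 1005 peaks by chromosome, with peaks of 2 kb or more in red, shorter peaks in grey and a bar at the median of the red points. The medians lie between 2695 bp on chromosome I and 3162.5 bp on X, and 10 of the 26 peaks of at least 5 kb are on X.

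The longest peak, 11562 bp with 3788 tags at 5.68-fold, was assigned to mnk-1 (chromosome II, 10541233 to 10552794), a homolog of the MAP kinase-interacting kinases that act on translation. Next came mdl-1, which encodes a MAD-like helix-loop-helix transcription factor (chromosome X, 6736114 to 6746191; 10078 bp, 3360 tags, 5.70-fold). The peak at ZK470.2 on X spanned 9477 bp with 3080 tags at 9.56-fold. W06H8.6 on V followed with 8202 bp and 2100 tags, but at 3.50-fold. sur-5, a widely expressed gene found as a suppressor of activated Ras, had 8001 bp, 2356 tags and 5.23-fold. H28G03.2 had 7885 bp, 3229 tags and 11.53-fold, the only one of the 10 longest that was also among the 10 broad peaks of highest fold. The last 4 of the 10 were pab-2, for a poly(A)-binding protein (7178 bp, 8.35-fold), the polyubiquitin gene ubq-1 (6896 bp, 3.66-fold), F22D6.2 (6659 bp, 3.65-fold) and the nuclear hormone receptor gene nhr-3 (6582 bp, 3.77-fold). Of the 10, 6 were on X (mdl-1, ZK470.2, sur-5, H28G03.2, pab-2 and nhr-3), 6 reached 5-fold and all 10 carried a single gene name.

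**Figure D2:**
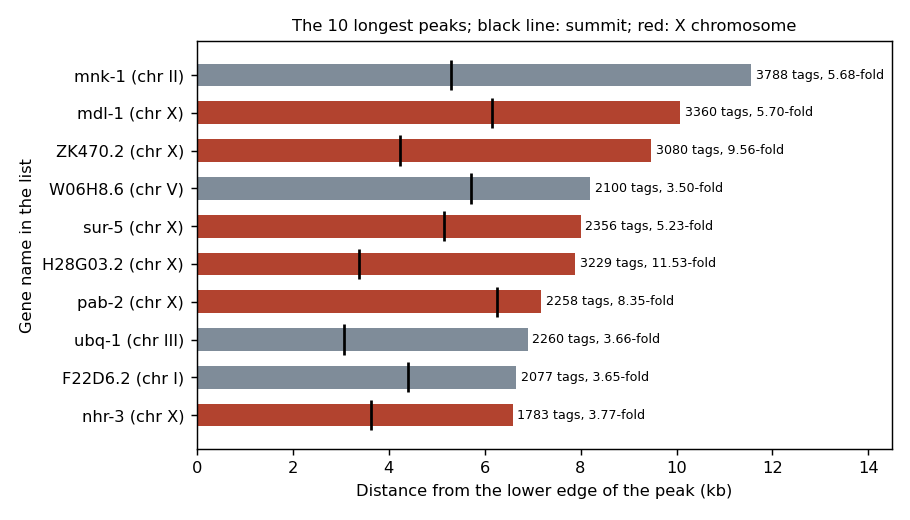
The 10 longest peaks drawn from their lower edge, in kb, with the summit as a black line, X-chromosome peaks in red and the tags and fold enrichment beside each bar. Lengths run from 6582 bp (nhr-3) to 11562 bp (mnk-1), and the summit of pab-2 stands at 87.2% of its length.

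Broad peaks were denser in tags as well as longer. Their median was 227 tags per kb (quartiles 206 and 267, range 164 to 741), against 194 in the shorter peaks (quartiles 181 and 217, range 151 to 458), a ratio of 1.17. Median fold enrichment, which sets the antibody signal against the level the caller expected from the control, was 3.53 (quartiles 2.96 and 4.88) against 3.10 (2.68 and 3.78), a ratio of 1.14. The quartile ranges overlap for both measures. A fold of 5 or more was listed for 13.6% of all peaks, for 76 of the 320 broad peaks (23.8%) and for 61 of the 685 shorter ones (8.91%). A false discovery rate of 5% or less was listed for 3.18% of all peaks, for 31 broad peaks (9.69%) and for 1 shorter peak, and all 15 peaks listed at 0 were broad. These shares come from the contrast that set the length and are read only as a description.

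Density climbed with length inside the broad group. Median tags per kb went from 210 in the 117 peaks of 2 to 2.5 kb to 225, 243, 247 and, in the 26 peaks of at least 5 kb, 302. Median fold followed less evenly, at 3.15, 3.43, 4.04, 3.74 and 5.17 in the same length classes. Across the 320 broad peaks, Spearman's rho was 0.40 between length and tags per kb and 0.31 between length and fold, where all 3 measures come from one pair of libraries. In the 685 shorter peaks these values were 0.35 and 0.05. The quotient of tags per kb and fold sets the mean density over a whole peak against the caller's fold. Its median was 63.4 in broad and 62.3 in shorter peaks, a ratio of 1.02.

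**Figure D3:**
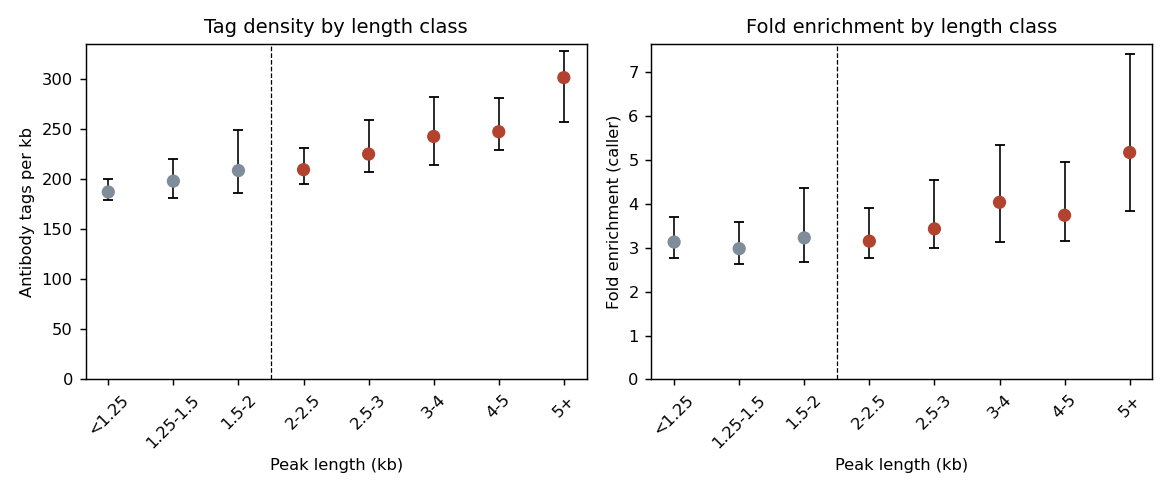
Antibody tags per kb (left) and fold enrichment (right) by length class in kb, with points at the median, bars from the lower to the upper quartile over the peaks of a class, and a dashed line at 2 kb. Median density goes from 187 tags per kb in the shortest class to 302 in the class of at least 5 kb, while median fold stays between 2.98 and 3.43 up to 3 kb.

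Read the other way, the share of broad peaks was greater among peaks of high fold. It was 24.5% of the 102 peaks under 2.5-fold, 22.1% of the 281 from 2.5-fold to 3-fold and 29.1% of the 357 from 3-fold to 4-fold. Above that it was 41.4% of the 128 peaks from 4-fold to 5-fold, 47.7% of the 107 from 5-fold to 8-fold and 83.3% (25 of 30) from 8-fold up. Among the 20 peaks of highest fold 17 were broad, and among the 100 highest 59 were. The highest fold of the whole list, 13.08, was at a shorter peak, yme-1. All 100 peaks with the most tags were broad, a ranking into which length enters directly. A score of exactly 3100 was shared by 4 peaks, all broad (hsp-6, gpd-2/mai-1/gpd-3, ZK470.2 and H28G03.2). The listed scores of mnk-1 and rpl-15/K11H12.8 were 3233 and 3107. A value shared exactly may be a limit of the caller, so these peaks are not ranked by score.

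By fold, 5 of the 10 leading broad peaks carried only a locus name. Y43F8B.2 (chromosome V, 19520680 to 19523488) had 1077 tags in 2809 bp at 12.28-fold, B0205.13 (I, 10726178 to 10730242) had 1537 tags in 4065 bp at 12.21-fold, and F19B2.6 (V, 20157666 to 20162023) had 1259 tags in 4358 bp at 12.12-fold. hsp-6, the mitochondrial HSP70 and the usual reporter gene of the response, came next at 11.85-fold, with 2186 tags in 4940 bp (V, 4823219 to 4828158). hpd-1, an enzyme of tyrosine breakdown, followed at 11.61-fold with 1482 tags in 5163 bp. After H28G03.2 came ZK673.2 (11.31-fold, 1305 tags, 4290 bp), abts-4, for an anion transporter (10.19-fold, 1391 tags, 3377 bp) and the calmodulin gene cmd-1 (10-fold, 986 tags, 3473 bp). The tenth was the peak shared by the ribosomal protein gene rpl-15 and its neighbour K11H12.8 (9.96-fold, 2152 tags, 6293 bp). Only 4 of these 10 had a false discovery rate of 0, and B0205.13 had 6.88%.

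The order by tag density was different. hsp-60, the mitochondrial chaperonin, was far above all others at 741 tags per kb, with 4741 tags in 6399 bp (chromosome III, 1615912 to 1622310) but at 3.79-fold, and with a blank false discovery rate. Next were gpd-2/mai-1/gpd-3 at 471 tags per kb, hsp-6 at 443, cyc-2.1 at 419, abts-4 at 412, H28G03.2 at 410 and rpl-12 at 409. The last 3 of the 10 densest were a peak with no gene name on X at 409, R05G6.7, the outer-membrane channel gene vdac-1, at 399, and the glucuronosyltransferase gene ugt-50 at 386. Of these 10, 9 reached 5-fold and hsp-60 did not. Its tags per kb over fold came to 195, against 23.8 at F19B2.6, the lowest broad peak on that measure.

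The broad group also held weak peaks. A fold under 3 was listed for 87 of the 320 (27.2%), against 296 of the 685 shorter peaks (43.2%). The lowest were the collagen gene col-71 (2.21-fold), ptc-1, of the patched receptor family (2.24-fold), the F-box gene fbxa-108 (2.29-fold), the aspartyl protease gene asp-3 (2.29-fold) and F14B4.2, the hexokinase gene hxk-1 (2.33-fold).

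In shorter peaks the summit, the position of highest pile-up, usually stood near the middle, and in broad peaks it usually did not. It fell in the central part, between 33.3 and 66.7% of the length, in 121 broad peaks (37.8%) against 551 shorter ones (80.4%). In 99 broad peaks it stood nearer the lower coordinate than that and in 100 nearer the upper one. The strand of the named genes was not used here, so lower and upper do not mean upstream and downstream. Measured as the distance from the midpoint, where 0% is the midpoint and 100% an edge, the median was 42.8% in broad and 15.5% in shorter peaks. In bp, the median distance from summit to the nearer edge was 815 in broad and 530 in shorter peaks, a difference of 285 bp. To the farther edge it was 1956 against 784, a difference of 1172 bp. The summit stood within 700 bp of an edge in 128 broad peaks (40%) and in 618 shorter ones (90.2%). Distances in bp are bounded by peak length. A peak short enough has every summit within 700 bp of an edge, and the median shorter peak was 1324 bp long. The summit's place as a percentage also depends on the peak length that set the groups, so all these contrasts are a description only.

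The most lopsided were eft-2, for a translation elongation factor, with its summit at 9.10% of 4813 bp, and gln-3, a glutamine synthetase gene, at 11.0%. At the other end stood W09D10.4, at 89.4% of 5574 bp, and cpl-1, a cathepsin L protease gene, at 89.2% of 3915 bp. By length class, the share with a central summit was 34.2% from 2 to 2.5 kb, 33.9% from 2.5 to 3 kb and 36.3% from 3 to 4 kb, then 51.4% from 4 to 5 kb and 50% (13 of 26) from 5 kb. Among the 10 longest it was 8, with W06H8.6 (69.6%) and pab-2 (87.2%) outside. hsp-60 had its summit at 50.7% of its length, and hsp-6 at 78.6%.

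**Figure D4:**
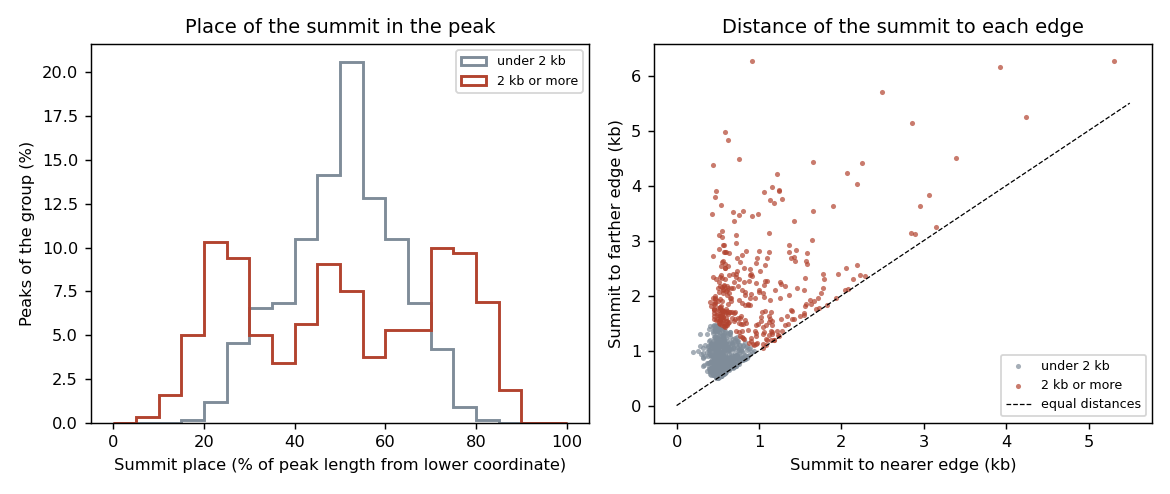
Left, place of the summit as a percentage of peak length from the lower coordinate, as a share of the broad (red) and shorter (grey) peaks in steps of 5%; right, distance in kb from summit to the nearer and to the farther edge, 1 point a peak, with a dashed line where both are equal. The shorter peaks form 1 hump around the middle, and the broad peaks form 3, with 121 summits in the central part, 99 below and 100 above it.

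Most broad peaks were given a single gene. In all, 269 of the 320 (84.1%) carried 1 name, 36 (11.3%) 2 or more and 15 (4.69%) none. Among the shorter peaks 562 of 685 carried 1 name, 64 (9.34%) 2 and 59 (8.61%) none. Per kb the broad peaks thus carried fewer names, 343 over their summed length or 0.334 per kb, against 690 or 0.732 per kb. As most peaks of either group carried 1 name, names per kb fall with the length that set the groups. The contrast is a description only. Only a locus name of the cosmid type stood at 109 broad peaks (34.1%) and at 266 shorter ones (38.8%). Of the 343 names, 306 matched a gene of the RefSeq table on the same chromosome, and all 306 were different protein-coding genes. None of them was named at a second broad peak. The 8 genes pqn-59, gsa-1, egl-30, tub-2, ipgm-1, rps-6, R06B9.5 and F22B7.9 were named at a broad and at a shorter peak. For rps-6 the shorter peak starts at 9625351 and the broad one at 13950790 on I, so one of these names may be an error of the list.

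Where a broad peak carried 2 names, the names that could be matched were those of neighbours. Of 34 such peaks, both names were matched in 27, and in all 27 the genes were next to each other in the table among protein-coding genes. Among the shorter peaks 64 carried 2 names, both were matched in 47, and in 42 of those the genes were neighbours. The pair farthest apart, rps-6/hsr-9, was 879 places apart in the table. One example among the broad peaks is the prohibitin gene phb-1 with Y37E3.8, the ribosomal protein gene rpl-27A (4168 bp, 4.97-fold). Others are the tubulin gene tbb-1 with rib-2 (3616 bp, 4.08-fold) and the histone H3.3 gene his-72 with the proteasome gene rpt-6 (2628 bp, 3.50-fold). A set of 3 names stood at 2 peaks. One was the block of gpd-2 and gpd-3, which encode a glycolytic dehydrogenase, with mai-1, for an inhibitor of the ATP synthase, on X (3111880 to 3117019), with 2419 tags in 5140 bp at 7.5-fold. The other was Y71H2AM.4/Y71H2AM.5/Y71H2AM.20 on III, of which the first pair are the respiratory-chain genes nduc-2 and cox-6B, with 476 tags in 2471 bp at 2.72-fold.

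The genes named at broad peaks were shorter than those named at shorter peaks. The matched genes had a median length of 2452.5 bp, against 3257 bp for the protein-coding genes at shorter peaks and 2006 bp for all 19971 of the table. Of 240 broad peaks with a single matched protein-coding gene, 139 (57.9%) were longer than that gene. Among 504 shorter peaks with such a gene the number was 102 (20.2%). Peak length set the groups and enters this comparison directly, so the difference is largely fixed by the choice of members. Across the 240, peak length and gene length had a Spearman's rho of 0.06. A peak may extend beyond the gene it is named for, and where it lies relative to the gene was not analysed here.

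The 15 broad peaks with no name had a median length of 2891 bp, 259 tags per kb and 4.11-fold, against 2803 bp, 226 tags per kb and 3.51-fold for the 305 named ones. On X there were 7. The longest spanned 5456 bp (7229944 to 7235399) with 1692 tags at 7.11-fold, and its summit stood 629 bp from the lower edge. The densest spanned 2891 bp (16929010 to 16931900) with 1182 tags at 5.60-fold. Another X peak, of 3822 bp starting at 6251232, had 1248 tags at 8.08-fold. The other 4 on X started at 1009055 (4.49-fold), 9636719 (2.79-fold), 13142972 (4.81-fold) and 16055566 (5.51-fold). Chromosome IV held 4, starting at 3394912 (8.67-fold in 2330 bp), 4467936 (3.37-fold in 4188 bp), 11147440 (3.08-fold) and 14032246 (4.11-fold). The remaining 4 were on I at 7656542 (2.96-fold), on III at 4492133 (2.92-fold) and 13060699 (2.82-fold), and on V at 13907253 (3.15-fold).

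Broad peaks were found on all 6 nuclear chromosomes. Their share of a chromosome's peaks was 33.5% on I (60 of 179), 35.3% on II (49 of 139), 35.3% on III (66 of 187), 33.3% on IV (55 of 165), 29.8% on V (48 of 161) and 24.1% on X (42 of 174). The X chromosome thus had the lowest share, with 13.1% of broad peaks against 19.3% of shorter ones and 13.7% of protein-coding genes. That order depends on the length line. With the line at 3000 bp X held 17% of the longer and 17.4% of the shorter peaks, and at 4000 bp it held 23% of the longer and 16.9% of the shorter. The broad peaks on X were longer and stronger than those elsewhere. The median of the 42 broad peaks on X was 3162.5 bp, 267 tags per kb and 4.80-fold, and that of the 278 elsewhere 2770 bp, 224 tags per kb and 3.41-fold. At least 5 kb was spanned by 10 of 42 on X and by 16 of 278 elsewhere. A fold of 5 or more was listed for 19 of 42 (45.2%) on X and for 57 of 278 (20.5%) elsewhere, against 14 of 132 (10.6%) and 47 of 553 (8.50%) of the shorter peaks. Of the 15 broad peaks whose rate was listed as 0, 9 were on X. Peaks of no name made up 7 of 42 broad peaks on X and 8 of 278 elsewhere, and 26 of 132 and 33 of 553 shorter ones. Along the chromosomes, broad peaks were 29.8% (151 of 506) of the peaks between 25 and 75% of the way from the first to the last listed peak, and 33.9% (169 of 499) of those outside.

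Some broad peaks had another listed peak close by. A second peak lay within 1000 bp of 25 of them (7.81%) and of 34 shorter peaks (4.96%), and within 5000 bp of 66 (20.6%) and 118 (17.2%). On II, 3 broad peaks followed each other at gaps of 971 and 826 bp, named for F13D12.3, the lactate dehydrogenase gene ldh-1 and the aldehyde dehydrogenase gene alh-8, within 12540 bp. On X, mdl-1 and abts-4 stood on either side of a short unnamed peak, at gaps of at most 145 bp, within 14834 bp. The hsp-6 peak had a broad neighbour 998 bp away, named C37H5.6. The heat shock cochaperone gene dnj-12 and the ribosomal protein gene rps-26 had broad peaks 123 bp apart on I. With neighbours less than 1000 bp apart joined into 1 region, the list held 974 regions, of which 323 spanned 2 kb or more.

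Gene names were compared with 21 lists of pathways and gene families, chosen with earlier results of these peaks known. Of all distinct names at any peak, 343 of 1018 (33.7%) stood at a broad peak. Of the genes on any of the lists it was 80 of 181 (44.2%), at 75 broad peaks. Genes that the peak list gives under older names can be missing from the lists and from this count. These 75 peaks had a median of 3.55-fold and 238 tags per kb, and the other 245 broad peaks 3.51-fold and 225 tags per kb.

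In 4 of the 5 mitochondrial lists, from 55.6 to 75% of the genes at peaks stood at broad ones. In the fifth, mitochondrial ribosomal proteins, 0 of 2 did. These lists follow pathways, and whether the product of each gene is mitochondrial was not checked here. Of 9 genes of mitochondrial protein quality control at peaks, 5 stood at broad ones. Beside hsp-6 and hsp-60 these were spg-7 itself, the RNAi target (854 tags in 2706 bp, 9.44-fold), and the prohibitin genes phb-1 (1021 tags, 4.97-fold) and phb-2 (538 tags in 2285 bp, 3.91-fold). Whether the spg-7 peak lies on the part of the gene carried by the RNAi food was not analysed here. Of 4 listed genes for the import machinery, 3 were at broad peaks. They were F15D3.7, the inner-membrane channel gene timm-23 (1174 tags, 7.57-fold), E04A4.5, which is timm-17B.1 (546 tags, 5.00-fold), and tomm-7 of the outer-membrane complex (1128 tags, 4.25-fold). The import gene named tin-13, at a shorter peak of 1224 bp, is not on the list under that name and was not counted.

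Oxidative phosphorylation gave 10 of 16. The list is not complete: the respiratory-chain genes nduc-2 and ndub-8, at broad peaks, and ndua-2, at a shorter one, are not on it. The cytochrome c gene cyc-2.1 had 1467 tags in 3501 bp at 9.66-fold, mai-1 shared the gpd peak, the ADP/ATP carrier gene ant-1.1 had 952 tags at 5.00-fold and atp-3, a subunit of the ATP synthase, had 540 tags at 4.49-fold. The other 6 were mai-2, cco-1, cco-2, atp-1, atp-2 and cox-6B, from 2.62-fold to 3.71-fold. The tricarboxylic acid cycle and linked steps gave 6 of 8, led by the aconitase gene aco-2 (1451 tags in 5535 bp, 4.69-fold), with idh-1 (3.01-fold), the citrate synthase gene cts-1 (2.96-fold) and pck-1 (2.82-fold) behind it, and none of the 6 reached 5-fold. The 24 broad peaks of these mitochondrial lists had a median of 3.85-fold, against 3.53 for all broad peaks.

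Glycolysis gave 8 of 11, at 7 peaks with a median of 5.19-fold. Beside gpd-2 and gpd-3 (7.5-fold) these were ldh-1 (1002 tags in 4049 bp, 7.09-fold), the phosphoglycerate mutase gene ipgm-1 (638 tags in 2158 bp, 6.76-fold), the aldolase genes aldo-1 (1327 tags, 5.19-fold) and aldo-2 (736 tags, 3.64-fold), the enolase gene enol-1 (1008 tags, 4.08-fold) and hxk-1 (436 tags, 2.33-fold). gpd-2 and gpd-3 are near-identical copies, so tags at their peak may not be assigned to one or the other with certainty. In tyrosine breakdown hpd-1 stood at a broad peak, 1 of 2 genes.

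Genes of protein synthesis were divided. Cytosolic ribosomal protein genes gave 12 of 25, among them rpl-15 (9.96-fold), rpl-12 (1420 tags in 3471 bp, 9.26-fold), rpl-3 (737 tags, 7.20-fold) and rpl-7A (748 tags, 5.23-fold), and the other 8 lay between 2.40-fold and 4.97-fold. Translation factors and aminoacyl-tRNA synthetases gave 3 of 7, all elongation factor genes of low fold, eft-4 (3.47), eft-2 (2.67) and eft-3 (2.5). That list is not complete either. The tRNA synthetase genes vrs-1 (1728 bp) and crs-1 (1433 bp), at shorter peaks, are not on it under those names and were not counted.

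Other stress pathways and protein turnover gave shares between 37.5 and 45.5%. Endoplasmic reticulum stress gave 3 of 8: the transcription factor gene xbp-1 (831 tags, 3.50-fold), the calreticulin gene crt-1 (518 tags, 3.07-fold) and the disulfide isomerase gene pdi-2 (709 tags, 2.83-fold). Cytosolic heat shock gave 3 of 7, with the HSP70 gene hsp-1 at 1792 tags in 5135 bp (5.11-fold), cct-1 of the chaperonin ring at 3.23-fold and dnj-12 at 2.93-fold. Ubiquitin and the proteasome gave 4 of 10, ubq-1, ubc-3 (3.64-fold), rpt-6 and ubc-12 (2.77-fold). The vacuolar proton pump and lysosome gave 5 of 11, of which the proton pump genes vha-13 (3.55-fold) and vha-1 (3.06-fold) and the protease genes asp-1 (3.20-fold) and cpl-1 (2.64-fold) were the highest.

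Among regulators, bZIP transcription factor genes gave 5 of 11: skn-1, the regulator of oxidative stress genes (811 tags in 2560 bp, 6.69-fold), zip-3 (1320 tags in 4562 bp, 5.41-fold), D1005.3, which is cebp-1 (653 tags, 4.47-fold), zip-2 (1068 tags, 4.40-fold) and xbp-1. Innate immunity gave 3 of 3, with the adaptor gene tir-1 at 1618 tags in 5440 bp (6.56-fold), zip-2, and hlh-30 at 412 tags in 2058 bp (3.47-fold). Nuclear hormone receptors gave 1 of 17, nhr-3. Detoxification gave 2 of 11, both of high fold, the cytochrome P450 gene cyp-33C8 (1196 tags in 4266 bp, 9.44-fold) and ugt-50 (1318 tags in 3417 bp, 8.97-fold).

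Structural genes gave 4 of 6 for actin, tubulin and muscle (tbb-1 at 4.08-fold, tba-2 at 3.48-fold, tbb-2 at 3.37-fold and act-2 at 3.07-fold), 3 of 13 for histones (his-72 at 3.50-fold, and his-35 with his-41 at 1 peak of 3.30-fold) and 1 of 4 for collagens (col-71). No vitellogenin gene was named at any peak. The shares of single lists rest on few genes and are given as counts only.

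**Figure D5:**
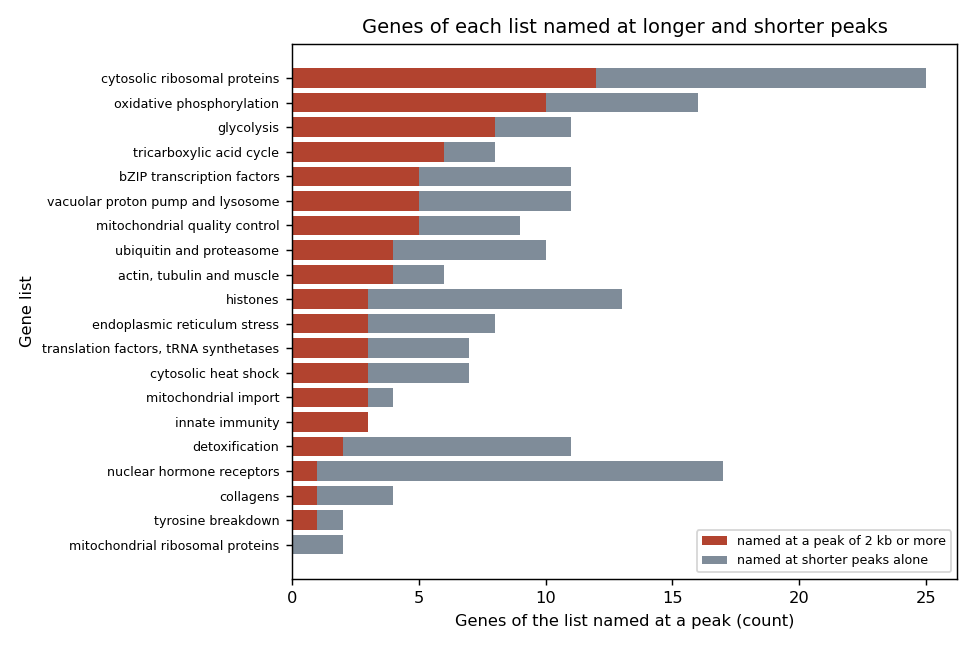
Number of genes of each list named at a broad peak (red) and at shorter peaks alone (grey), for the lists with at least 1 gene at a peak. Cytosolic ribosomal proteins have the most genes at broad peaks, 12 of 25, and nuclear hormone receptors have 1 of 17.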

How the data were processed

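The deposited data used here are 1 peak list. Per the file headers, MACS 1.4.2 called the peaks on the antibody library with the no-antibody library as control, at a p cutoff of 1.00e-05, with the genome taken as 90000000 bp, fragments as 200 bp and at most 1 tag kept per position; BWA 0.7.5, Picard and MACS 1.4 stand in the submitters' processing notes. The build of the coordinates, and how the gene names were assigned, are not given in the sources used here. The deposited tag count is that of the antibody library in each peak, a whole number that grows with length. The deposited fold enrichment is the caller's ratio over the control, and the deposited false discovery rate is in percent. The heading of the deposited score column had been lost to a spreadsheet error, and it was read by column order as the caller's p-value on a negative log10 scale. Counting error and the absent replicate limit all of these values, and no interval was computed for them. The binomial interval used below as a tolerance for shares does not measure the spread between libraries.

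Tags per kb, summit place and name counts were derived with Python 3.11.15, pandas 2.3.3 and numpy 2.4.6, rank correlations with scipy 1.17.1 and plots with matplotlib 3.10.9, after a check on simulated peaks. Names were split at slashes, stripped of comments and matched, ignoring case, to symbols and locus names on the same chromosome in the RefSeq table of WBcel235, of which only names, classes, lengths and gene order were used. Of 1033 names 929 matched (89.9%). The members and the gene lists were chosen with earlier results of these data known. Named with values are the 10 longest, 10 highest-fold and 10 densest members, the 5 of lowest fold, 3 peaks on either side of the length line, peaks with 3 names or none, and per list at most the 4 genes of highest fold; further genes were named after their values were seen. No sequence was used here, so none is printed and the planned motif shares were not run. Alternatives were other length lines, filters on false discovery rate and fold, joined neighbours, no X chromosome and single-name peaks.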

Additional observations from a re-analysis of the deposited data

How the results depend on the processing

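No paired analysis was possible because there is 1 library per condition and no test was made, and for the same reason no library could be left out. Over the alternatives, 37 values kept within their tolerance (10% for a median or ratio, 1.5 times for a count, the exact 95% binomial interval for a share), 24 moved beyond it, 1 of them only by a change of unit, and 2 reversed; for these the cause was not tested unless named. The number of broad peaks was 320 at 2000 bp, 538 at 1500 bp, 203 at 2500 bp, 141 at 3000 bp and 61 at 4000 bp. It was 31 with the false discovery rate held to 5% and 197 at or above the median fold. At the 5% rate only 1 shorter peak was left, yme-1 at 13.08-fold. The ratios of broad over shorter peaks then rest on that peak, at 0.716 for tags per kb and 0.583 for fold. The fold ratio was 1.28, 1.32 and 1.39 at 2500, 3000 and 4000 bp, and the density ratio was 1.02 after division by fold. The median summit distance from the midpoint was 35.4% at 1500 bp, 32.5% at 4000 bp and 36.2% at the 5% rate, and in the other unit, as a distance to the nearer edge, it was 815 bp. The share of broad peaks with 2 or more names was 6.45% at the 5% rate and 18.3% with neighbours less than 1000 bp apart joined. The share of broad peaks on X, 13.1% against 19.3% of shorter ones as listed, was 23% against 16.9% at 4000 bp, 45.2% at the 5% rate (where the 1 shorter peak is not on X) and 18.3% against 24.8% at or above the median fold. List genes at broad peaks were 67.4% at 1500 bp, 33.1% at 2500 bp, 25.4% at 3000 bp and 13.3% at 4000 bp. Beside them, broad peaks were 53.5, 20.2, 14 and 6.07% of all peaks. The latter is a share of peaks and not of names. As listed, the share of peaks was 31.8% and that of names 33.7%. At the 5% rate, list genes at broad peaks were 13 of 14 (92.9%), beside 31 of 32 peaks (96.9%), counts too small to set the shares apart. Motif shares, on either strand, were not run.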
